A study of Mus musculus with 12 samples.

Results

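The choroid plexus genes described here were 9 genes of the mouse, Ttr, Kl, Folr1, Aqp1, Enpp2, Clic6, Otx2, F5 and Slc4a5, found by their symbols among the 39756 genes of a count table of the ischemic hemisphere. All 9 were in the table, and all 9 were among the 17558 genes that passed the filter on low counts. RNA was sequenced from 12 male C57BL/6J mice, aged 9 to 10 weeks by the study's methods, with 4 mice in each of 3 groups. The Sham group underwent sham surgery and by the methods received saline, and the Vehicle group received saline and a transient occlusion of the middle cerebral artery (tMCAO), closed for 45 min by a filament that was then pulled back. The LJP group underwent the same occlusion and received Laminaria japonica polysaccharide, given by the methods daily for 14 days before surgery and continued afterwards. By the study's text the middle of 3 tested doses was used in the experiments after the dose test. The sources used here do not name the time after surgery for the sequenced mice, and all libraries carry the same batch label.

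The choroid plexus is a folded sheet of epithelium over a core of vessels that hangs in the brain ventricles and secretes cerebrospinal fluid. Its epithelial cells pump ions and bicarbonate, let water follow through channels, and carry hormones and vitamins from blood into that fluid. The sources used here do not record how much choroid plexus each dissected hemisphere held. In bulk tissue, fewer cells of a type and less RNA per cell cannot be told apart.

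Each mouse gave between 17960353 and 22216315 counts in total. Levels are given as CPM, the counts relative to the TMM-normalized library size, and a count of 0 allows a level of up to 0.129 to 0.173 CPM (3 counts, counting error only). The hemispheres carried the general brain list (Snap25, Gfap, Cx3cr1 and others) at a summed 6277 to 8311 CPM in every mouse. Of the 10 hepatocyte genes, a tissue that also makes Ttr, 5 were at 3 counts or fewer in all 12 mice. The numbers of the mice within the groups are names only.

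The levels of the choroid plexus genes differed widely among mice of the same group. Ttr, which had the highest mean level per length, ranged 269-fold over the 12 mice, and its spread within the groups was the largest of all genes tested. In the Sham group mouse 1 was the lowest for 9 of 9 genes, and in the LJP group mouse 3 was the highest for 9 of 9. In the Vehicle group mice 1 and 2 were the lowest and mice 3 and 4 the highest for most genes, with Aqp1 as an exception. In Vehicle against Sham, LJP against Vehicle and LJP against Sham edgeR called 0 of the 9 genes, where it called 39.9%, 0.0228% and 4.75% of all genes tested. At an unadjusted p below 0.05 stood 0, 1 and 2 of the 9, against 49.9%, 29.7% and 18.8% of all genes. DESeq2 called 0, 1 (Aqp1) and 0 of the 9, against 36.4%, 13.2% and 7.55% of the genes to which it gave an adjusted p.

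**Figure D1:**
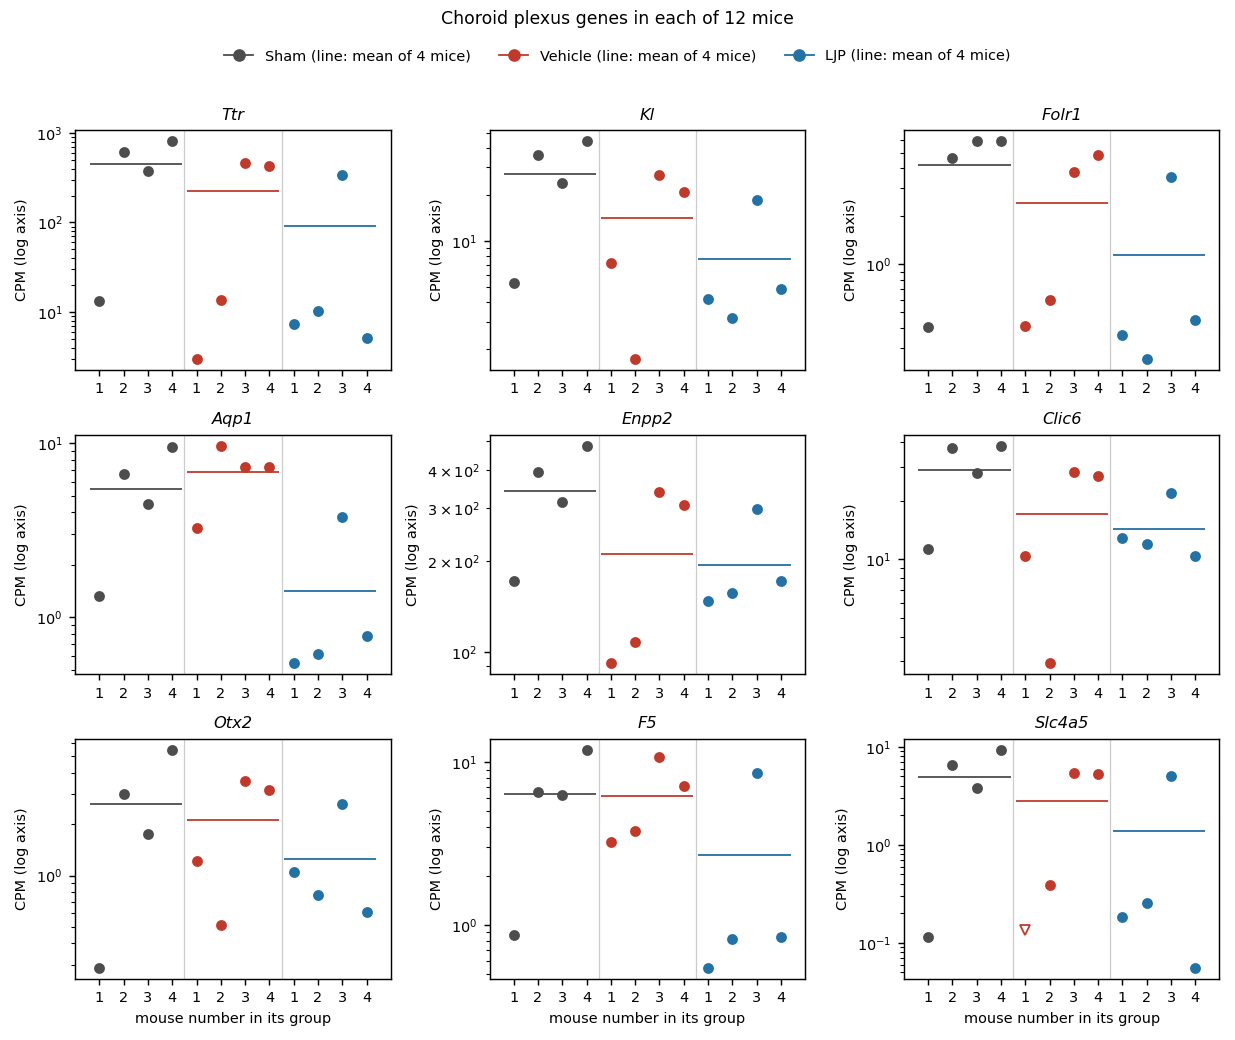
Level of each of the 9 choroid plexus genes in each of the 12 mice, in CPM on a log axis, by mouse number within the Sham (grey), Vehicle (red) and LJP (blue) groups, with the mean of 4 mice as a line. The open triangle marks the count of 0 for Slc4a5 in Vehicle mouse 1, drawn at the level of 3 counts. Sham mouse 1 lies lowest and LJP mouse 3 highest in their groups in all 9 panels.

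Transthyretin (Ttr, Entrez Gene 22139, chromosome 18 from 20664209 to 20674326, plus strand, GRCm38) carries thyroxine and, together with retinol-binding protein, vitamin A, and choroid plexus epithelium is its main source in the brain. Its level was 13.4, 611, 375 and 806 CPM in Sham mice 1 to 4. It was 2.995, 13.5, 465 and 428 CPM in Vehicle mice 1 to 4 and 7.27, 10.3, 338 and 5.07 CPM in LJP mice 1 to 4. Thus 6 mice lay at or below 13.5 CPM and 6 at or above 338 CPM, every group held mice on both sides, and no mouse lay in the 25.1-fold gap. By raw counts Ttr ran from 66 to 15555, so the low values were still well above the counting floor. Its rank per length (CPM per kb) among all genes was 24 in Sham mouse 4 and 11404 in Vehicle mouse 1. The within-group SD of Ttr was 3.08 on the log2 scale, against a median of 0.23 over all genes tested. Group means were 452 ± 341 CPM in Sham, 227 ± 253 in Vehicle and 90.3 ± 165 in LJP (SD, n = 4 each), so the SD was as large as the mean or larger in Vehicle and LJP. The log2 fold change was -0.99 (standard error 1.54, adjusted p = 0.631 by edgeR) for Vehicle against Sham, -1.33 (1.56, adjusted p = 0.577) for LJP against Vehicle and -2.32 (1.60, adjusted p = 0.482) for LJP against Sham. The groups overlapped in each comparison. An antisense gene, Gm16090, overlaps Ttr and had at most 8 counts in a mouse, and the library kit does not mark the strand, so reads of the 2 genes cannot be told apart there.

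Slc4a5 (Entrez Gene 232156, chromosome 6 from 83207580 to 83304945, plus strand), an electrogenic sodium bicarbonate cotransporter of the apical membrane, followed Ttr most closely in size. Its level was 0.115, 6.59, 3.78 and 9.28 CPM in Sham mice 1 to 4. It was 0 (no count), 0.387, 5.44 and 5.33 CPM in Vehicle mice 1 to 4 and 0.182, 0.256, 5.06 and 0.0557 CPM in LJP mice 1 to 4. The same mice were low and high as for Ttr, and the groups overlapped. Between the highest and the lowest mouse the ratio was 80.4 in the Sham group (179 against 2 counts, 95% counting interval 21.9 to 669) and 90.8 in the LJP group (93 counts against 1, interval 15.9 to 3622). In the Vehicle group the highest mouse was at least 39.9-fold higher than the mouse with 0 counts, taken at a floor of 3 counts per library. Its within-group SD of 2.52 (log2) was exceeded by 1 tested gene, which was Ttr. No group difference passed the test, with log2 fold changes of -0.85, -1.001 and -1.85 for Vehicle against Sham, LJP against Vehicle and LJP against Sham (lowest edgeR adjusted p = 0.504).

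Folr1 (Entrez Gene 14275, chromosome 7 from 101858331 to 101870788, minus strand), the folate receptor alpha that carries folate across the epithelium, had the same division. Its level was 0.404, 4.63, 5.92 and 5.91 CPM in Sham mice 1 to 4. It was 0.408, 0.602, 3.82 and 4.85 CPM in Vehicle mice 1 to 4 and 0.363, 0.256, 3.54 and 0.446 CPM in LJP mice 1 to 4. Sham mouse 1, Vehicle mice 1 and 2 and LJP mice 1, 2 and 4 were all at or below 0.602 CPM, where counts were between 5 and 14. The log2 fold changes were -0.82, -1.07 and -1.89 for Vehicle against Sham, LJP against Vehicle and LJP against Sham, and none passed the test (lowest edgeR adjusted p = 0.329). The overlapping gene Gm35597 had at most 9 counts in a mouse, which is in the range of Folr1 itself in the low mice.

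Kl (Entrez Gene 16591, chromosome 5 from 150952607 to 150993817, plus strand) encodes alpha-klotho, a membrane protein that acts as a co-receptor for FGF23 and is also shed. Its level was 5.31, 36.0, 23.8 and 44.4 CPM in Sham mice 1 to 4. It was 7.22, 1.72, 26.9 and 20.9 CPM in Vehicle mice 1 to 4 and 4.22, 3.17, 18.5 and 4.90 CPM in LJP mice 1 to 4. Its range over the 12 mice was 25.8-fold, with the lowest level in Vehicle mouse 2 and not in Vehicle mouse 1, where Ttr was lowest. For LJP against Sham the log2 fold change was -1.84 (standard error 0.80, unadjusted p = 0.0404, edgeR adjusted p = 0.239), with overlap between the groups. The log2 fold change was -0.96 for Vehicle against Sham (edgeR adjusted p = 0.343) and -0.88 for LJP against Vehicle (adjusted p = 0.467).

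Clic6 (Entrez Gene 209195, chromosome 16 from 92498147 to 92541241, plus strand), a member of the chloride intracellular channel family, kept a level of about 10 CPM in most of the mice in which Ttr was low. Its level was 11.3, 37.4, 27.9 and 38.5 CPM in Sham mice 1 to 4. It was 10.4, 2.92, 28.3 and 26.8 CPM in Vehicle mice 1 to 4 and 12.9, 12.0, 22.0 and 10.4 CPM in LJP mice 1 to 4. Vehicle mouse 2 stood below every other mouse, as it did for Kl. The log2 fold changes were -0.76, -0.25 and -1.01 for Vehicle against Sham, LJP against Vehicle and LJP against Sham, with a lowest edgeR adjusted p of 0.290.

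Enpp2 (Entrez Gene 18606, chromosome 15 from 54838901 to 54952789, minus strand) encodes autotaxin, the secreted enzyme that makes lysophosphatidic acid, and is also expressed by oligodendrocytes. Its level was 171, 393, 314 and 481 CPM in Sham mice 1 to 4. It was 92.1, 108, 338 and 307 CPM in Vehicle mice 1 to 4 and 148, 157, 298 and 172 CPM in LJP mice 1 to 4. The same mice were low and high as for Ttr, but the range over the 12 mice was 5.22-fold, the narrowest of the 9 genes, and no mouse fell below 92.1 CPM. The 10 genes of the oligodendrocyte list (Mbp, Mobp and others) were present in every mouse at a summed 4821 to 6581 CPM. That sum was 4821 CPM in Sham mouse 1 against 5685 to 5873 in the other Sham mice, and 6082 CPM in LJP mouse 3 against 4894 to 5356 in the other LJP mice. In the Vehicle group it went the other way, with 6430 and 6581 CPM in mice 1 and 2, where Ttr was low, and 6105 and 6075 in mice 3 and 4. The deviations of its genes from their group means correlated with the mean deviation of the 9 genes at a median Pearson r of 0.73. The part of these cells in the level of Enpp2 and of the other genes was not tested. The log2 fold changes of Enpp2 were -0.69, -0.12 and -0.81 for Vehicle against Sham, LJP against Vehicle and LJP against Sham, and none passed the test (lowest edgeR adjusted p = 0.217).

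Otx2 (Entrez Gene 18424, chromosome 14 from 48656781 to 48667644, minus strand), a homeodomain transcription factor needed for the choroid plexus to form and be kept, had the lowest mean of the 9 genes per length. Its level was 0.288, 3.00, 1.75 and 5.44 CPM in Sham mice 1 to 4. It was 1.23, 0.516, 3.61 and 3.18 CPM in Vehicle mice 1 to 4 and 1.04, 0.767, 2.61 and 0.613 CPM in LJP mice 1 to 4. The lowest mouse was Sham mouse 1 with 5 counts, and the groups overlapped. None of the 3 comparisons passed the test (lowest edgeR adjusted p = 0.493).

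F5 and Aqp1 departed from Ttr in the Vehicle mice. F5 (Entrez Gene 14067, chromosome 1 from 164151835 to 164220277, plus strand) encodes coagulation factor V. Its level was 0.865, 6.54, 6.25 and 11.9 CPM in Sham mice 1 to 4. It was 3.22, 3.78, 10.7 and 7.11 CPM in Vehicle mice 1 to 4 and 0.545, 0.818, 8.59 and 0.836 CPM in LJP mice 1 to 4. Vehicle mice 1 and 2, with little Ttr, thus had more F5 than Sham mouse 1 and LJP mice 1, 2 and 4. The antisense gene Gm16548 had 21 counts in Vehicle mouse 2 and 7 in Vehicle mouse 1, against 88 and 71 counts of F5 there, and at most 4 in the other mice. No comparison of F5 passed the test, with log2 fold changes of -0.05, -1.21 and -1.26 for Vehicle against Sham, LJP against Vehicle and LJP against Sham and a lowest edgeR adjusted p of 0.348.

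Aqp1 (Entrez Gene 11826, chromosome 6 from 55336299 to 55348555, plus strand) encodes the water channel of the apical membrane of the epithelium, and is expressed in other tissues also by endothelium and red cells. Its level was 1.33, 6.65, 4.49 and 9.48 CPM in Sham mice 1 to 4. It was 3.27, 9.67, 7.27 and 7.27 CPM in Vehicle mice 1 to 4 and 0.545, 0.614, 3.75 and 0.780 CPM in LJP mice 1 to 4. Vehicle mouse 2, low for the 8 other genes, had the highest level of Aqp1 among the 12 mice, with 225 counts. In that mouse the endothelial list (Cldn5, Pecam1, Flt1 and others, 9 genes) summed to 1604 CPM, against 360 to 739 in the other Vehicle mice and 259 to 326 in the Sham and LJP mice. The 12 genes of the meningeal fibroblast list (Col3a1, Dcn, Col1a2 and others) summed there to 1653 CPM, against 216 to 331 in the other Vehicle mice and 109 to 176 in the Sham and LJP mice. The erythroid list summed to 136 CPM in that mouse, the lowest of the 12 mice, and reached 193 CPM in Vehicle mouse 1. The part of these cell types in the level of Aqp1 was not tested.

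For Aqp1 the LJP mean was 1.42 ± 1.56 CPM and the Vehicle mean 6.87 ± 2.65 (SD, n = 4 each). LJP against Vehicle stood at -2.28 on the log2 scale (standard error 0.67, 95% interval -3.72 to -0.84, unadjusted p = 0.00468, edgeR adjusted p = 0.0718). LJP mouse 3 lay above Vehicle mouse 1, so the groups overlapped, and the other 3 LJP mice lay below all Vehicle mice. DESeq2, which called 13.2% of its genes in this comparison, called this difference (adjusted p = 0.0252). So did edgeR without Vehicle mouse 3 (adjusted p = 0.0439), where it called 3857 genes in all in place of 4. Over all alternative settings the adjusted p lay between 0.0252 and 0.208. For LJP against Sham the log2 fold change of Aqp1 was -1.96 (standard error 0.67, unadjusted p = 0.0117, edgeR adjusted p = 0.125). Without LJP mouse 3 it was -3.09 and passed the test (adjusted p = 0.0234), where edgeR called 393 genes in all in place of 834.

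Compared per length, the mean level over the 12 mice was 195 ± 216 CPM per kb for Ttr, followed by 38.5 ± 19.1 for Enpp2 and 5.36 ± 3.11 for Clic6 (SD, n = 12 mice). Kl stood at 2.94 ± 2.55 CPM per kb, Aqp1 at 1.66 ± 1.24 and Folr1 at 1.60 ± 1.46. The lowest were F5 at 0.685 ± 0.540, Slc4a5 at 0.492 ± 0.527 and Otx2 at 0.353 ± 0.278 CPM per kb. In the 6 mice with little Ttr this order differed, with Enpp2 above Ttr and Slc4a5 below Otx2 in each of them. From Clic6 downwards each neighbouring pair in this order differed by less than the SD of its higher member, and Ttr and Enpp2 did so as well.

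In Vehicle against Sham 0 of 9 choroid plexus genes passed the edgeR test at an adjusted p below 0.05, where 39.9% of all genes tested did, 0 had an unadjusted p below 0.05 (49.9% of all genes), and DESeq2 called 0 (36.4% of its genes). In LJP against Vehicle edgeR called 0 of 9, where it called 0.0228% of all genes, with 1 (Aqp1) at an unadjusted p below 0.05 (29.7% of all genes) and 1 (Aqp1) called by DESeq2 (13.2% of its genes). In LJP against Sham edgeR called 0 of 9, where it called 4.75% of all genes, with 2 (Kl and Aqp1) at an unadjusted p below 0.05 (18.8% of all genes) and 0 called by DESeq2 (7.55% of its genes). At an unadjusted p below 0.01 and a log2 fold change beyond 0.58 in either direction, 0, 1 and 0 of the 9 passed, against 21.7%, 6.97% and 5.90% of all genes. The median log2 fold change over the 9 genes was -0.76, -1.001 and -1.84 in these comparisons, and it was 0.00 over all genes tested in each. The comparisons share mice, so these medians are not separate observations. For 0 of the 9 genes were the groups free of overlap, against 39.5%, 11.7% and 24.9% of all genes tested. When only the Sham and LJP mice were fitted, 4 genes (Kl, Aqp1, Enpp2 and Clic6) passed the test as lower in LJP, and edgeR then called 4043 genes in all in place of 834. The number called in all for LJP against Vehicle also rested on single mice, where leaving out Vehicle mouse 3 gave 3857 and leaving out Vehicle mouse 4 gave 2095, in place of 4. For LJP against Sham the number called fell to 393 without LJP mouse 3, to between 403 and 440 without any 1 Sham mouse and to 518 without LJP mouse 1, and it rose to 2357 without Vehicle mouse 2.

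**Figure D2:**
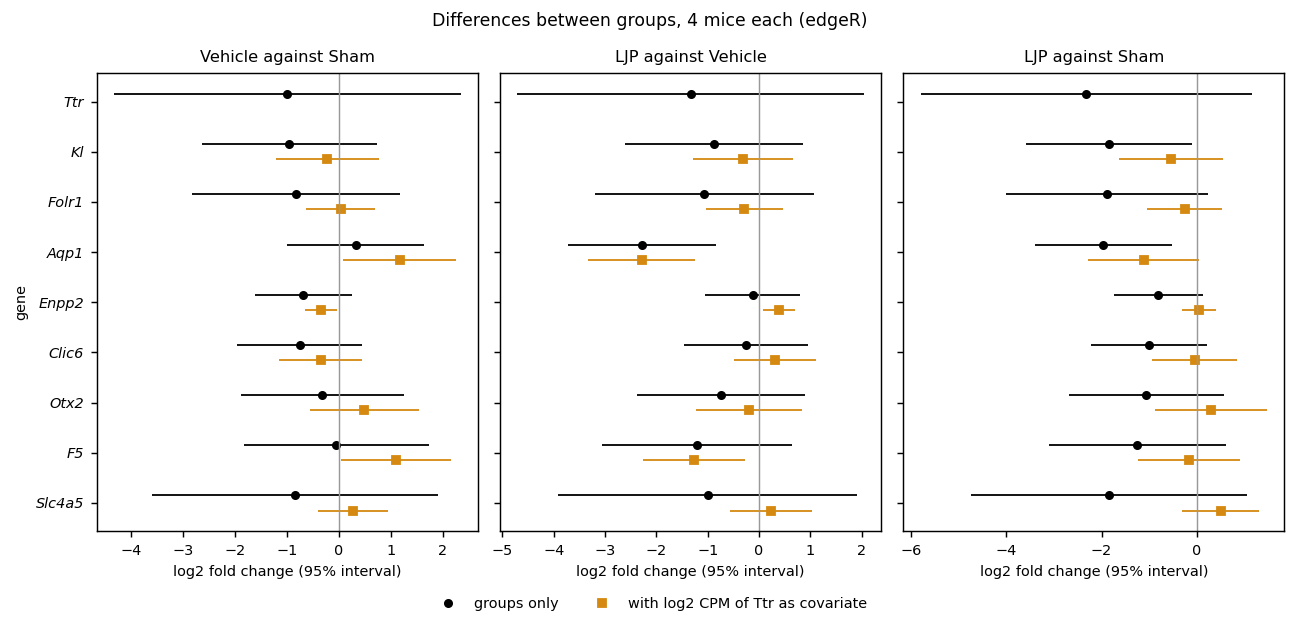
Log2 fold change with its 95% interval for the 9 genes in the 3 comparisons (edgeR, 4 mice per group), from the fit of the groups alone (black circles) and with the log2 CPM of Ttr in each mouse as a covariate (orange squares, not defined for Ttr itself). The black intervals reach from -4.33 to 2.34 for Ttr in Vehicle against Sham, and the orange intervals are narrower for all 8 other genes.

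The genes moved together among mice of the same group. When the log2 CPM of each gene was taken as its deviation from the group mean, the deviations of each gene correlated with the mean deviation of the other 8 at a Pearson r of 0.79 for Aqp1, 0.81 for Clic6, 0.90 for Kl, 0.92 for F5 and for Otx2, and 0.95 for Enpp2. The r was 0.97 for Slc4a5, Ttr and Folr1. These values describe 12 mice whose Ttr levels fall on 2 sides of a gap, and the genes share their libraries, so no p is given. The mean deviation over the 9 genes was -2.28 in Sham mouse 1 and between 0.33 and 1.20 in the other Sham mice. It was -1.43 and -1.22 in Vehicle mice 1 and 2 and 1.39 and 1.26 in Vehicle mice 3 and 4. In the LJP group it was 2.02 in mouse 3 and between -0.74 and -0.63 in the others.

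**Figure D3:**
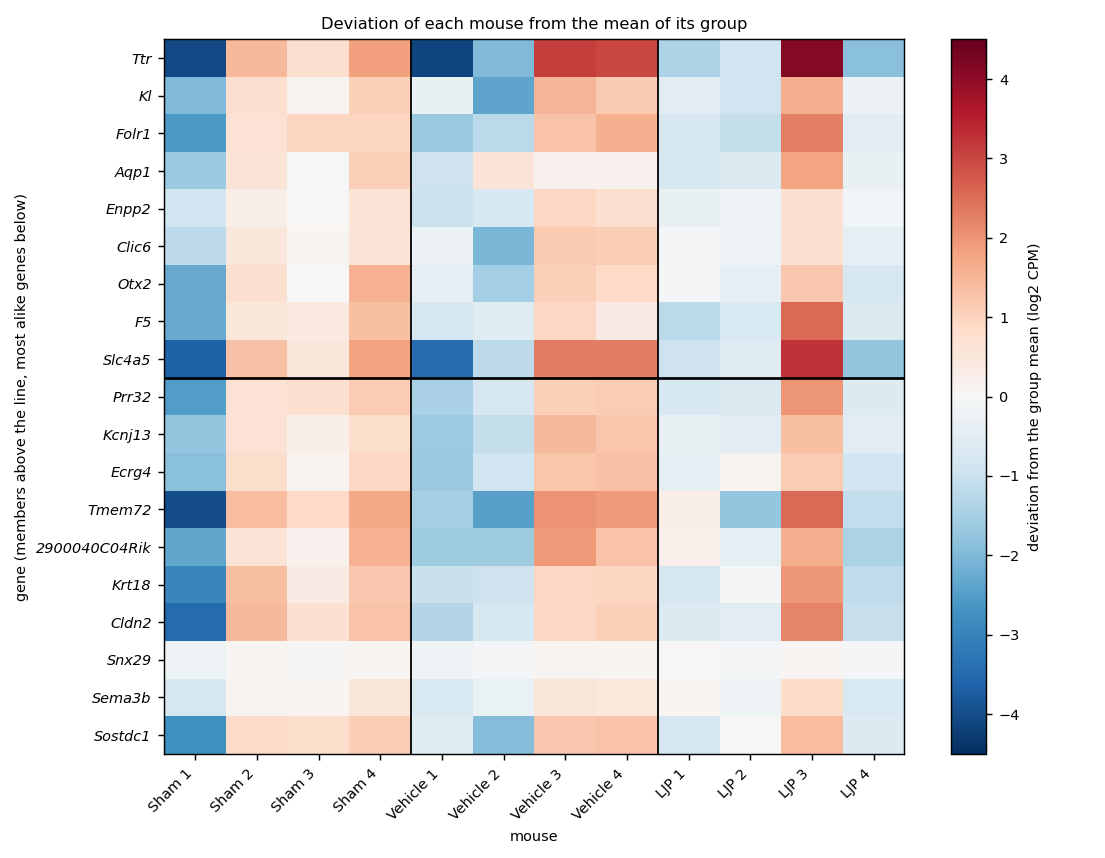
Deviation of each mouse from the mean of its group, in log2 CPM (colour scale, red above and blue below the group mean), for the 9 genes above the line and the 10 other genes with the most alike pattern below it. Sham mouse 1 is blue in all rows. LJP mouse 3 is red for all 9 genes above the line. Aqp1 departs in Vehicle mouse 2.

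Among the 17549 other genes tested, 19 had an r of at least 0.90 with the mean deviation of the 9 genes. The 10 most alike were Prr32 (0.98), Kcnj13 (0.98), Ecrg4 (0.96), Tmem72 (0.96), 2900040C04Rik (0.96), Krt18 (0.96), Cldn2 (0.95), Snx29 (0.95), Sema3b (0.94) and Sostdc1 (0.93). Of these, Kcnj13 (an inwardly rectifying potassium channel), Ecrg4, Tmem72, Krt18 (a keratin of simple epithelia), Cldn2 (a claudin of leaky tight junctions) and Sostdc1 (a secreted antagonist of BMP and Wnt signalling) were in the list of other choroid plexus genes. Kcnj13 had 24, 143, 109 and 165 counts in Sham mice 1 to 4, 12, 20, 102 and 88 in Vehicle mice 1 to 4, and 24, 19, 69 and 17 in LJP mice 1 to 4. Its low and high mice were those of Ttr. Snx29 differed from the rest in size, since it lay between 392 and 601 counts in all mice.

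The size with which each gene followed Ttr was estimated as a slope in the edgeR fit with the log2 CPM of Ttr as a covariate beside the groups, a fit added after the data had been seen. A slope of 1 means that a gene changes by the same fold as Ttr. The slope was above 0 for all 8 genes other than Ttr, and it passed the test for 3 of them: Slc4a5 at 0.92 (standard error 0.05, adjusted p = 1.38e-05 by edgeR), Folr1 at 0.56 (0.05, adjusted p = 4.72e-04) and Enpp2 at 0.23 (0.02, adjusted p = 7.31e-04). Of the 17557 genes tested in this way 11 had a slope called above 0 (0.0627%) and 0 had one called below 0. F5 stood at 0.41 (standard error 0.07, adjusted p = 0.0723), Kl at 0.37 (0.07, adjusted p = 0.0931) and Otx2 at 0.35 (0.07, adjusted p = 0.205). Aqp1 stood at 0.27 (standard error 0.07, adjusted p = 0.588) and Clic6 at 0.25 (0.05, adjusted p = 0.325). The intervals of Slc4a5 (0.80 to 1.04) and Enpp2 (0.18 to 0.28) do not overlap, and that of Slc4a5 holds the value of 1. These slopes rest on mice on 2 sides of the gap in Ttr and on genes that share libraries. The fit also takes Ttr as known without error, and the p-values and intervals do not allow for these limits. In the mice with little Ttr, Slc4a5 had 0 to 9 counts. The 3 genes passed the test without any 1 of the 12 mice, while 7 of the 8 (all but Otx2) passed without Vehicle mouse 2 and 6 of the 8 without Vehicle mouse 1. Which genes passed also depended on the reference gene. With Kl in place of Ttr the slope passed for Enpp2 (adjusted p = 0.0306 by edgeR), Clic6 (0.00464) and Otx2 (0.0128), where 0.0399% of all genes had a slope called above 0. It did not pass for Slc4a5 (adjusted p = 0.0621) or Folr1 (0.0516).

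**Figure D4:**
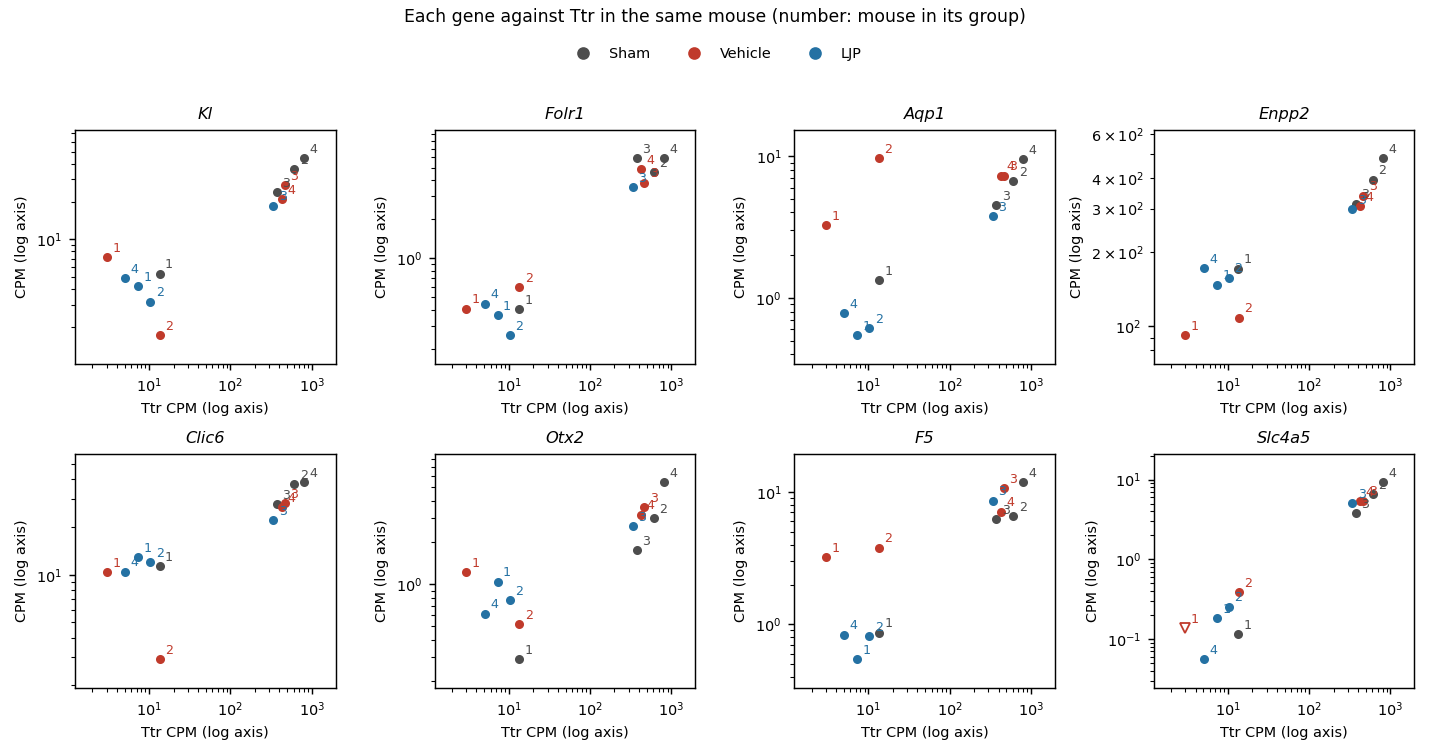
Level of each of the 8 other genes against the level of Ttr in the same mouse, both in CPM on log axes, for Sham (grey), Vehicle (red) and LJP (blue) mice, with the number of the mouse in its group. The open triangle marks the count of 0 for Slc4a5 in Vehicle mouse 1, drawn at 3 counts. The mice lie at 2 ends of the Ttr axis with none between 13.5 and 338 CPM, and Vehicle mice 1 and 2 lie above the other low mice for Aqp1 and F5.

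The other 8 genes with a called slope were Kcnj13 (0.42), Ecrg4 (0.42), Cldn2 (0.54), Tmem72 (0.78) and Krt18 (0.50) of the other choroid plexus list, and Prr32 (0.61), 2900040C04Rik (0.72) and Sema3b (0.19). With any 1 mouse left out between 6 and 25 genes had a called slope above 0, with 6 without Sham mouse 3 or 4, 7 without Vehicle mouse 3 or 4 or LJP mouse 2, 3 or 4, and 25 without Vehicle mouse 2. A slope called below 0 was found for 2 genes without Sham mouse 1, for 1 gene without LJP mouse 3 and for 0 genes without any other mouse.

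With Ttr held as a covariate the group differences of the 8 genes had standard errors of 0.14 to 0.54 log2 units, against 0.43 to 1.34 in the fit of the groups alone. edgeR still called 0 of the 8 in each comparison, against 33.4%, 0.0285% and 3.18% of all genes. For Aqp1 the log2 fold change of LJP against Vehicle was -2.29 (standard error 0.48, adjusted p = 0.0575 by edgeR), and with Kl as the covariate it was -2.39 and passed the test (adjusted p = 0.0378), where edgeR then called 13.4% of all genes. F5 stood at -1.26 for LJP against Vehicle (standard error 0.45, adjusted p = 0.0867), and for Vehicle against Sham Aqp1 stood at 1.17 (0.50, adjusted p = 0.0895) and F5 at 1.09 (0.49, adjusted p = 0.102). For Folr1, Otx2 and Slc4a5 the point estimate of Vehicle against Sham moved from -0.82, -0.32 and -0.85 to 0.03, 0.49 and 0.27. A group effect that Ttr shares is removed together with the covariate, so these values are differences beyond those of Ttr.

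The start regions of the genes are shown for 3 of them, Slc4a5, which followed Ttr most closely in size, and F5 and Aqp1, which departed from it in the Vehicle mice. RefSeq promoter entries (GRCm38.p6) matched 5 of the 9 genes. The sequences come from the 250 bases before the annotated start, 5′ to 3′ on the plus strand. Each is cut at its first base that GENCODE places in an exon. For Slc4a5 this left the 65 bases farthest from the start, and later bases outside exons were dropped with the 103 exon bases. Capitals mark TAAT on either strand, the core that homeodomain factors such as Otx2 bind.
Slc4a5, chr6:83237125-83237189, a start inside the gene: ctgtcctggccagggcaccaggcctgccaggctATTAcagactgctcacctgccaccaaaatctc
Aqp1, chr6:55336049-55336298: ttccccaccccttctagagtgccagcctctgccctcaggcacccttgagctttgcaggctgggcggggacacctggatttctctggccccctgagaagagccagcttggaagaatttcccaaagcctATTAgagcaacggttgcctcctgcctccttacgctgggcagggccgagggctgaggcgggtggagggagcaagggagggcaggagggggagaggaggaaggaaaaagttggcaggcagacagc
F5, chr1:164151585-164151834: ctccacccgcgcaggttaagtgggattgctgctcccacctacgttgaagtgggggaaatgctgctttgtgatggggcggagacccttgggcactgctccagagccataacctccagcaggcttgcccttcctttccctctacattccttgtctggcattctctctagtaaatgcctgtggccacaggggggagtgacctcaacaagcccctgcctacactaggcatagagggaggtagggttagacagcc
TAAT stood once in the 65 bases of Slc4a5 and once in the 250 bases of Aqp1, and it was not in the 250 bases of F5. Of all 32851 promoter entries 54.9% hold it on either strand in 250 bases and 25.5% in their first 65 bases. The longer form TAATCC was in none of the 3 stretches and is in 6.25% of all 250-base windows. These matches describe letters and say nothing of binding.

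Of 40 other choroid plexus genes 39 were in the table and 36 were tested. In Vehicle against Sham 6 of the 36 rose (among them Igfbp2, Bmp7, Abcc4, Slc31a1 and Trpv4), where edgeR called 22.7% of all genes as higher, and 1 fell (Car12), where it called 17.3% as lower. Of those named here, Igfbp2 was chosen by the rule for named genes, and the others are named after their values were seen. Igfbp2, a binding protein of insulin-like growth factors, rose by a log2 fold change of 1.38, and its r with the 9 genes was 0.36. Slc12a2, the sodium, potassium and chloride cotransporter that takes part in fluid secretion, stood at a log2 fold change of -0.07 (adjusted p = 0.576 by edgeR) and an r of 0.59. In LJP against Vehicle and in LJP against Sham edgeR called 0 of the 36. The median log2 fold change of the 36 genes was -0.15, -0.72 and -0.57 in the 3 comparisons, and their median r with the 9 genes was 0.67, where that of the oligodendrocyte list was 0.73. Their summed level was 548 CPM in Sham mouse 1 and 694 to 816 in the other Sham mice, 638 to 1047 in the Vehicle mice with the highest value in mouse 2, and 748 in LJP mouse 3 with 512 to 614 in the other LJP mice.

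**Figure D5:**
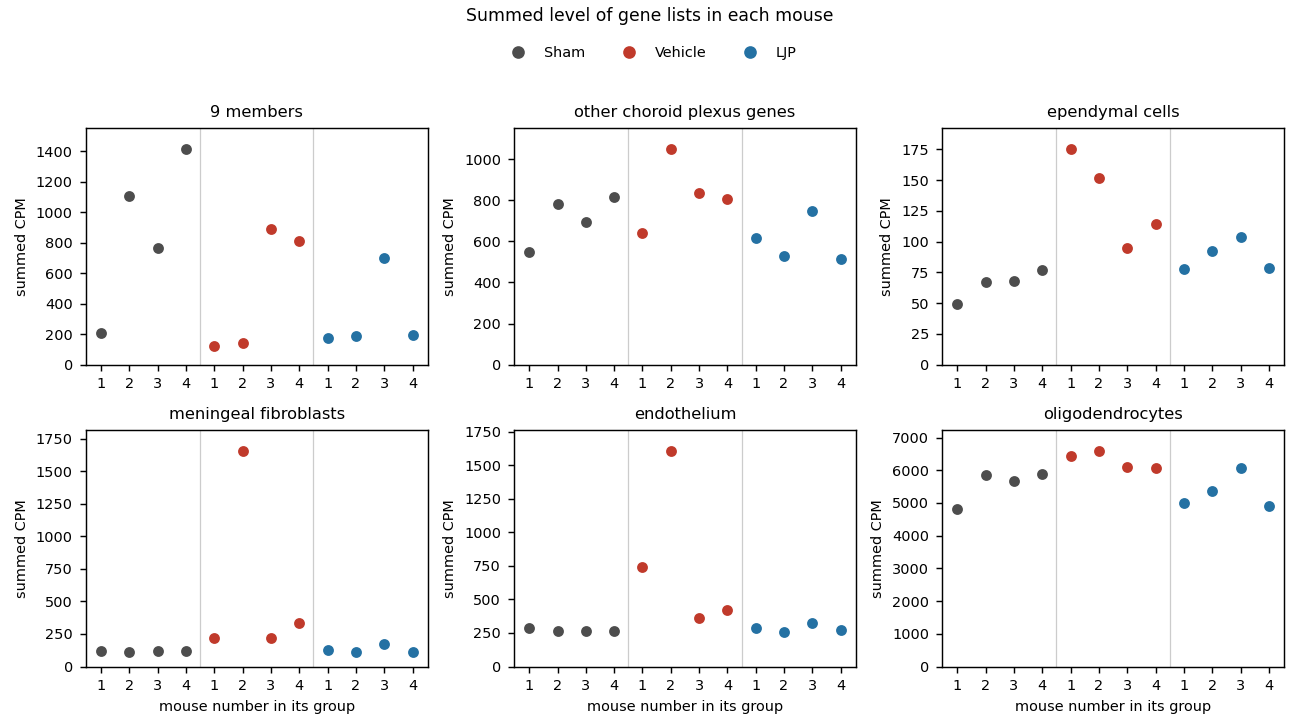
Summed level of 6 gene lists in each mouse, in CPM on linear axes from 0, by mouse number within the Sham (grey), Vehicle (red) and LJP (blue) groups. The 9 choroid plexus genes sum to 121 to 1412 CPM and fall on 2 levels in each group, while the ependymal list is highest in Vehicle mice 1 and 2 and the meningeal and endothelial lists are highest in Vehicle mouse 2.

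The ependymal list, the ciliated cells that line the ventricles beside the choroid plexus, did not go with the 9 genes in the Vehicle group. Of its 11 tested genes 7 rose in Vehicle against Sham and 0 fell, where 22.7% of all genes were called as higher and 17.3% as lower, with Rarres2 at a log2 fold change of 1.43 (standard error 0.17, adjusted p = 1.77e-04 by edgeR) and Foxj1, the regulator of motile cilia, at 1.30. The list summed to 175 and 152 CPM in Vehicle mice 1 and 2, where Ttr was low, and to 95.2 and 115 in Vehicle mice 3 and 4. In the other groups its order was that of the 9 genes at the ends, with 49.5 CPM in Sham mouse 1 against 67.3 to 76.8 in the other Sham mice, and 103 CPM in LJP mouse 3 against 77.6 to 92.3 in the other LJP mice. Its median r with the 9 genes was 0.13. Beside the same shares over all genes, 6 of 9 genes of the endothelial list rose in Vehicle against Sham and 7 of 12 of the meningeal fibroblast list, with 0 lower in either and a median r of -0.35 and -0.06. The striatum list (Adora2a, Pde10a, Ppp1r1b, Penk and others) fell in 9 of 9 genes (17.3% of all genes), and its median r was 0.20.

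Genes that work with the choroid plexus proteins were measured in the whole hemisphere, where many cell types express them. The counts called in Vehicle against Sham stand beside 22.7% of all genes called as higher and 17.3% as lower. At so few genes a list, they are descriptions. Of 13 genes of cerebrospinal fluid transport 2 rose in Vehicle against Sham (Slc12a4 and Atp1b2) and 3 fell (among them Atp1b1 and Car12), and Kcnj13 alone had a called slope on Ttr. Atp1b1 fell by 0.37 on the log2 scale (adjusted p = 0.0420 by edgeR). Among 9 genes of lysophosphatidic acid signaling, the product of Enpp2, 5 rose and 0 fell, with the receptor Lpar5 at a log2 fold change of 1.59 and Lpar6 at 1.36. Among 8 genes around klotho and the FGF receptors 3 rose (Fgfr4, Adam17 and Fgfr1) and 1 fell (Bace1, by 0.21 on the log2 scale). Bace1, Car12 and Folr2 are named after their values were seen. Adam17, a protease that sheds klotho, rose by a log2 fold change of 0.99. Among 8 folate and vitamin carriers 3 rose (among them Stra6 and Folr2) and 1 fell (Rbp4), and among 7 genes of thyroid hormone transport 0 rose and 1 fell (Thrb, a thyroid hormone receptor, at a log2 fold change of -0.73). In LJP against Vehicle edgeR called 0 genes of these 5 lists. The median slope on Ttr was 0.02 in the fluid transport list and between -8.85e-04 and 0.012 in the other 4, against 0.36 over the 8 genes.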

How the data were processed

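Poly(A) RNA of the ischemic hemisphere was sequenced in 12 mice, and the authors deposited raw counts per gene and mouse without normalization. The submitters' processing notes name featureCounts, DESeq2, GRCm39 and mm10, with no role given. The gene positions in the table equal those of GRCm38 for 39754 of 39756 genes. Groups and replicate numbers were taken from the sample labels. Counts were fitted in R 4.3.3 with edgeR 4.0.16 (filterByExpr, TMM factors, quasi-likelihood test, 1 coefficient per group over all 12 mice), with Benjamini-Hochberg adjusted p over the 17558 genes tested. Log2 CPM used a prior count of 2. DESeq2 1.42.0 was an alternative, beside other normalizations, no filter, fits of 2 groups, a replicate block and leaving out each mouse in turn. Fits with the log2 CPM of Ttr or Kl as a covariate were added after the data had been seen. Plots were drawn with matplotlib 3.10.9. The edgeR test and the slope were tested on simulated data.

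The 9 genes and the gene lists were chosen with earlier results of these data known. The genes named are the 9, the 10 other genes whose within-group deviations correlated most with theirs, and from each list the 2 with the smallest p in Vehicle against Sham and the 2 with the highest mean CPM, with the few exceptions stated in the text. Results for some genes of the lists are not reported here. No 2 mice of a group agreed within sampling noise (lowest chi-square per degree of freedom 2.56). Whether the mice were separate animals from separate litters or cages is not given in the sources used here, so p-values measure the spread between these 12 libraries.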

Additional observations from a re-analysis of the deposited data

Results flagged for a closer look

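A mouse was counted as far from its group when the gap to the nearest other mouse took more of the range of the 4 mice than Dixon's 95% critical value. It was applied to the CPM of the 9 genes and of their sum in each group, 30 sets in all. A mouse stood apart in 8 of these sets, and in each of the 8 it was LJP mouse 3, on the high side. Chance flags about 1 in 20 independent sets, but these genes move together and were chosen with earlier results known, so the 8 sets are not separate observations. Among the 9 genes the ratio of the gap to the range there was 0.984 for Ttr, 0.887 for Kl, 0.942 for Folr1, 0.927 for Aqp1, 0.836 for Enpp2, 0.964 for F5 and 0.96 for Slc4a5, and it was 0.961 for their sum. Clic6 and Otx2 did not pass the critical value. The 10 most alike genes were picked for sharing this pattern, so their values only describe it. Among them the ratio in LJP mouse 3 was 0.987 for Prr32, 0.949 for Kcnj13, 0.833 for Tmem72, 0.849 for Krt18 and 0.948 for Cldn2. In the Sham group Snx29 in mouse 1 passed on the low side, at 0.876. No mouse of the Vehicle group passed for any of these genes, where mice 1 and 2 lay on one side and mice 3 and 4 on the other for Ttr.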

How the results depend on the processing

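Of 530 checks of the log2 fold changes of the 9 genes under alternative settings, 489 kept the direction and the side of the threshold, 33 turned the direction and 8 passed the threshold where the reported fit did not. The number of the 9 genes called was 0 in each comparison. It became 1 (Aqp1) in LJP against Vehicle with DESeq2 and at the study's thresholds, and 4 in LJP against Sham when only the 2 groups were fitted. Leaving out 1 mouse gave 0 to 1 in LJP against Vehicle (1 without Vehicle mouse 3) and in LJP against Sham (1 without LJP mouse 3). All genes called in LJP against Vehicle numbered 4, and 593 with no filter, 2 with the 2 groups alone, 2307 with DESeq2 and 3 to 3857 without 1 mouse. In LJP against Sham they numbered 834, and 4043 with the 2 groups alone, 1454 with DESeq2 and 393 to 2357 without 1 mouse. With library size alone 4737 of 7036 genes called in Vehicle against Sham were higher, in place of 3982 of 7014. The cause of these changes was not tested.

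The replicate numbers did not pair the mice, since 2 of 12 mice correlated best with their own number in another group (r of -0.32 to 0.11). The replicate block gave 2 genes in LJP against Vehicle and 464 in LJP against Sham, called 0 of the 9 genes, and turned F5 in Vehicle against Sham to 0.023 and Enpp2 in LJP against Vehicle to 0.039.

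Further estimates turned sign. F5 in Vehicle against Sham was 0.019 with library size alone. With Ttr as covariate Vehicle against Sham became 0.030 for Folr1, 0.49 for Otx2, 1.09 for F5 and 0.27 for Slc4a5, and with Kl 0.29, 0.78, 1.20 and 0.72. The 95% interval of F5 with Ttr was 0.032 to 2.15 (edgeR adjusted p = 0.102). LJP against Vehicle became 0.39 for Enpp2 and 0.31 for Clic6 with Ttr, 0.27 and 0.55 with Kl, and 0.23 for Slc4a5 with Ttr. The interval of Enpp2 with Ttr was 0.079 to 0.71 (edgeR adjusted p = 0.0892). LJP against Sham became 0.044 for Enpp2, 0.30 for Otx2 and 0.50 for Slc4a5 with Ttr, and 0.044, 0.77 and 0.71 with Kl, and 0.34 for Clic6 with Kl. Leaving out 1 mouse moved Vehicle against Sham between -0.0038 and 0.72 for Aqp1, -0.70 and 0.32 for Otx2 and -0.45 and 0.44 for F5. It moved LJP against Vehicle between -0.41 and 0.20 for Enpp2 and -0.60 and 0.11 for Clic6.

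The number of genes with a called slope on Ttr was 11 and lay between 6 and 25 without 1 mouse, of which 3 to 7 of the 8 tested choroid plexus genes. Depth limits Slc4a5, Folr1 and Otx2 in the mice with little Ttr, where they had 0 to 27 counts.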

Other observations

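Among gene lists not described above, the cortex list (Neurod6, Fezf2, Tbr1, Cux2 and others, 8 genes tested) had 1 gene higher and 2 lower in Vehicle against Sham, where edgeR called 22.7% of all genes as higher and 17.3% as lower, with a median r of 0.45 with the 9 choroid plexus genes. The thalamus list had 1 higher and 1 lower of 8 and a median r of 0.21, and its summed level stayed between 192 and 233 CPM in all mice. The hippocampus list had 1 higher and 1 lower of 8 and was highest in Vehicle mouse 1, at a summed 718 CPM, where Wfs1 alone had 13263 counts, so that the sum there is mostly 1 gene. The hypothalamus and pituitary list had 0 of 6 called by edgeR, and its highest sums, 26.4 and 18.7 CPM, were in Vehicle mice 1 and 3. The megakaryocyte and platelet list had 2 higher and 1 lower of 3 tested genes.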
